A study of Arabidopsis thaliana with 26 samples.

Results

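The region described is the euchromatic short arm of chromosome 2 of Arabidopsis thaliana, which ends in a nucleolus organizer region. Its members were all HindIII restriction fragments on the left arm that lie at least 1.2 Mb from the centromere, the chromosome end included, which gave 1304 of 66846 fragments and covered the first 2.41 Mb of the chromosome. Membership rested on position alone and used no contact reads. The study applied circular chromosome conformation capture (4C) to aerial tissue of 14-day-old seedlings of the ecotype Col-0, grown under long days, with no mutant or treatment in any library. Contacts were read from 13 viewpoints, each in biological replicates A and B, 26 libraries in all. The viewpoints SWN, hk4s and YAO lie on the short arm of chromosome 4, and hk4s lies inside its heterochromatic knob. MEA F6, MEA F8, PHE1 and AT1G51860 lie on chromosome 1, AT3G44380 on chromosome 3, AG and FWA on the long arm of chromosome 4, and FLC on chromosome 5. FIS2 and CKI1 lie on the long arm of chromosome 2, so that no viewpoint sits on the short arm itself and only these reach it within the same chromosome.

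In 4C, contacts in fixed nuclei are caught by digestion and ligation, after which inverse PCR from a chosen fragment, the viewpoint, recovers its ligation partners for sequencing. The number of reads at a fragment thus follows how often it was ligated to the viewpoint. Chromosomes 2 and 4 of Arabidopsis are acrocentric, and the ends of their short arms carry the tandem arrays of 45S ribosomal RNA genes around which the nucleolus forms. These arrays are largely missing from the reference sequence, which begins with only a fragment of them.

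The HindIII ends at which contact reads of the members described most closely start are given here, each written into the fragment, with the recognition site in capitals. Sequences are from RefSeq, assembly TAIR10.1, whose HindIII sites coincide with the TAIR10 coordinates of the files. The outermost member, at chr2:1-8843, has a single HindIII end (minus strand, chr2:8814-8843), and its neighbour at chr2:8838-19667 has a right end (minus strand, chr2:19638-19667) that matches the genome at 10 places. The outermost member is shown because it carries the ribosomal RNA genes of the reference. The 30 bases shown of its end, with the site, match the genome once. The 30 bases that follow the site, which the trimmed reads cover, match at 2 places, so that its reads cannot be placed uniquely either. The second member is shown because of its repeated end, where the same holds.
Outermost member, right end: AAGCTTttacccttttgttccacacgagat
Second member, right end: AAGCTTcctggagttaaaggccatgttgac
The next sequences belong to the members with the highest median contact over the viewpoints and to those with the most reads from FIS2, SWN and YAO. Each matches the genome once, and each is the left end on the plus strand, at chr2:1583995-1584024 (IBR5 fragment), chr2:112921-112950 (PDE331 fragment), chr2:182723-182752 (PIN4 fragment), chr2:88721-88750 (AT2G01130 fragment) and chr2:148274-148303 (RPI2 fragment).
IBR5 fragment: AAGCTTccaaaagacagaaaatgagtagca
PDE331 fragment: AAGCTTagaaaactccattgaaaatgttct
PIN4 fragment: AAGCTTagcgccacggtactcgaagaggaa
AT2G01130 fragment: AAGCTTaaccatagttacttgccattaccc
RPI2 fragment: AAGCTTctaaagcagctgtggcgaattcta

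Contact is given as reads at HindIII ends scaled to 1000000 kept reads (RPM), averaged over fragments. Kept fragments lie at least 1 kb from the viewpoint and 100 kb from the centromere and have a site of the viewpoint's second enzyme within 1000 bp of an end. This left 1047 or 1048 members and 254750 to 3370541 kept reads per library. Members with at least 1 read were 27.96% to 94.6% of those kept, so that single fragments were sparsely sampled in the shallow libraries. Because PCR copies of one ligation product cannot be told apart here, the spread between replicates and viewpoints is given as the error. The 3 viewpoints on the short arm of chromosome 4 were all in the later of 2 batches, together with AT1G51860 and AT3G44380. All 5 used NlaIII as second enzyme, as did both MEA viewpoints. According to the study, the batches also differed in library construction. Sequencing adapters were part of the 4C primers in the first batch and were ligated to the PCR products in the later one.

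Among viewpoints outside chromosome 2, those on the short arm of chromosome 4, the other arm that ends in a nucleolus organizer, had the highest contact with the short arm of chromosome 2 relative to other arms. From SWN, whose gene encodes a Polycomb methyltransferase, the short arm of chromosome 2 held 11.6 and 10.8 RPM per fragment in replicates A and B, against 9.48 and 8.22 RPM on the arms of the chromosomes other than 2 and 4. From hk4s the short arm held 11.3 and 8.38 RPM, against 7.004 and 5.36 RPM on the other arms. From YAO, named after a nucleolar protein gene, it held 9.10 and 8.65 RPM, against 7.30 and 6.28 RPM. The short arm was thus the higher in each of these 6 libraries, and among the 8 arms of chromosomes without the viewpoint it ranked first in all 6.

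The log2 ratio of the short arm over the other arms was 0.34 ± 0.07 from SWN, 0.67 ± 0.04 from hk4s and 0.39 ± 0.10 from YAO (SD, 2 replicates each). Their mean was 0.47 ± 0.18 (SD, n = 3 viewpoints), and that of the other 8 viewpoints outside chromosome 2 was -0.08 ± 0.25. The lowest of the 3 was above the highest of the 8, PHE1 with 0.21. The difference of 0.54 on the log2 scale had an exact permutation p of 0.0121 over 165 assignments of viewpoints, whose smallest possible p is 0.00606. The test treats viewpoints as independent, although MEA F6 and MEA F8 are neighbouring fragments and SWN, hk4s and YAO share 1 arm. The same limit holds for the other tests and correlations over viewpoints. Leaving out any 1 viewpoint gave an exact permutation p of 0.00833 to 0.0444. Within the later batch the difference was 0.51, but with 3 viewpoints against AT1G51860 and AT3G44380 no p below 0.10 is possible.

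**Figure D1:**
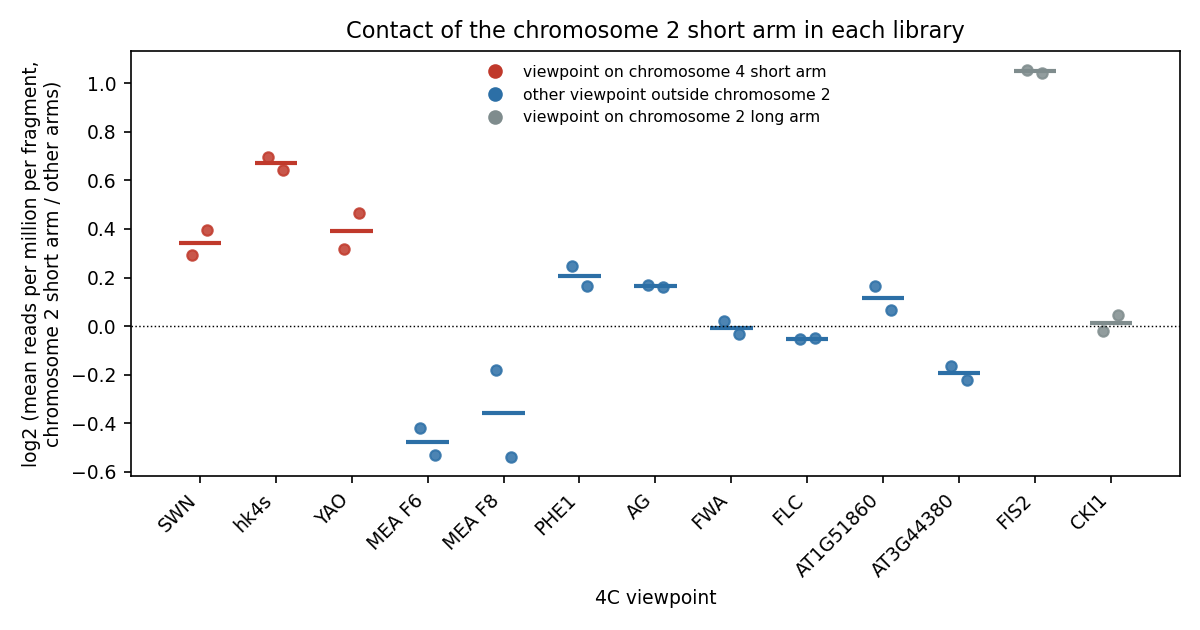
Log2 ratio of mean RPM per fragment on the short arm of chromosome 2 over the other arms, for each viewpoint (x axis), with a point per replicate and a bar at their mean. SWN, hk4s and YAO, on the short arm of chromosome 4, lie between 0.29 and 0.69 in all 6 libraries, and the other viewpoints outside chromosome 2 lie at or below 0.25.

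The remaining viewpoints outside chromosome 2 fell on both sides of 0. PHE1 gave ratios of 0.25 and 0.17 and ranked the short arm first of 8 arms in both replicates, and AT1G51860 ranked it first in replicate A and at place 3 in replicate B. Both MEA viewpoints, next to each other near the end of chromosome 1, were lowest, with -0.42 and -0.53 from MEA F6 and -0.18 and -0.54 from MEA F8. For MEA F6 and AT3G44380 the short arm ranked last of the 8 arms in both replicates. Over all 11 viewpoints outside chromosome 2 the mean ratio was 0.07 ± 0.34 (SD), with 6 viewpoints above 0 and an exact sign-flip permutation p of 0.491, so that no common direction was found.

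The ratio depended on the region used for comparison. Members lie both near a centromere and near a chromosome end, and contact differed along arms. Against fragments of the other chromosomes no farther from their centromere than the members, the mean ratio was 0.46 ± 0.41 (SD, n = 11, 9 viewpoints above 0, exact sign-flip permutation p = 0.00586), with 1.12 from SWN, 0.82 from hk4s and 1.04 from YAO. Against fragments no farther from their chromosome end than the members, it was -0.18 ± 0.52 (4 of 11 above 0, exact permutation p = 0.267). Against chromosome ends the mean of SWN, hk4s and YAO was 0.14 and that of the other 8 viewpoints -0.31, a difference of 0.45 that did not pass (exact permutation p = 0.224). There SWN gave -0.23 and -0.21, YAO -0.01 and 0.12, and hk4s 0.63 and 0.55, so that only hk4s was above 0 in both replicates. Against the long arm of its own chromosome the short arm had a mean ratio of -0.10 ± 0.58 (exact permutation p = 0.673), with 0.25 from SWN, 0.60 from hk4s, 0.33 from YAO and -1.59 from AG. The difference between the viewpoints on the short arm of chromosome 4 and the other 8 was 0.68 in that comparison (exact permutation p = 0.0788).

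The outer 1.2 Mb of the short arm, 666 members, was also set against the outer 1.2 Mb of the short arm of chromosome 4, the other nucleolus organizer end, for the 6 viewpoints that lie on neither chromosome. Its log2 ratio over that end was -0.15 ± 0.16 (SD, n = 6), with 1 viewpoint above 0 and an exact sign-flip permutation p of 0.0938, where 0.0313 is the smallest possible. PHE1 gave 0.04 and 0.03 and FLC -0.15 and -0.08, values near equality, while MEA F6 gave -0.51 and -0.34. Against the 4545 fragments of the outer 1.2 Mb of chromosome ends without a nucleolus organizer, the ratio was -0.20 ± 0.56 (n = 11, 5 above 0, exact permutation p = 0.268). It ran between -1.30 in MEA F6 replicate B and 0.76 in hk4s replicate A, and both MEA viewpoints were at or below -0.82 in all 4 of their libraries.

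FIS2 and CKI1 reach the short arm across their own centromere, and their levels on it differed. FIS2, 11.4 Mb from the centromere, placed 19.3 and 19.7 RPM per fragment on the short arm, against 9.28 and 9.54 RPM on the arms of other chromosomes, and log2 ratios of 1.05 and 1.04. CKI1, 15.9 Mb from the centromere at the end of the long arm, placed 10.8 and 12.2 RPM there, against 10.97 and 11.8 RPM on other chromosomes, and ratios of -0.02 and 0.05. FIS2 was thus the highest of all viewpoints on the short arm and CKI1 was level with other chromosomes. The long arm that carries both viewpoints held more: the short arm over the long arm was -2.15 and -2.08 from FIS2 and -2.84 and -2.56 from CKI1.

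Contact was not even along the short arm. In bins of 100 kb, the 0.3 Mb next to the chromosome end held the highest bin for 10 of 13 viewpoints. FIS2 peaked at 0.2 to 0.3 Mb from the end with 30.8 RPM, CKI1 there with 28.4 RPM, and MEA F6 there with 18.7 RPM. SWN and FWA peaked at 0.1 to 0.2 Mb, with 19.6 and 13.0 RPM. The outermost bin was highest for hk4s with 16.0 RPM, YAO with 15.4 RPM and AG with 12.1 RPM. PHE1 and AT1G51860 peaked instead at 1.3 to 1.4 Mb and AT3G44380 at 2.0 to 2.1 Mb. For AT3G44380 the outermost bin was the lowest, with 3.62 RPM, and for AT1G51860 the bin at 0.1 to 0.2 Mb, with 2.78 RPM. The bin at 1.2 to 1.3 Mb was the lowest for MEA F6, FIS2, CKI1, SWN and hk4s, with 2.76 RPM from MEA F6 and 12.2 RPM from FIS2. That bin has few genes (0.347 per fragment), many transposable elements (1.08 per fragment) and a low H3K36me3 density (5.79% of bases). The next bin, at 1.3 to 1.4 Mb, is close to it in these measures (0.371 genes and 1.39 transposable elements per fragment, H3K36me3 on 6.50% of bases). Its mean log2 ratio over the other arms was 0.30 for the 11 viewpoints outside chromosome 2, against -0.48 in the bin at 1.2 to 1.3 Mb. Other features of these bins were not compared, and a relation of contact to composition over bins was not tested. The correlation of the replicates over the 25 bins, which share libraries and fragment composition, ran between 0.11 for AT3G44380 and 0.87 for FIS2, so that the bin profiles of AT3G44380, hk4s (0.17) and PHE1 (0.21) differed widely between replicates.

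**Figure D2:**
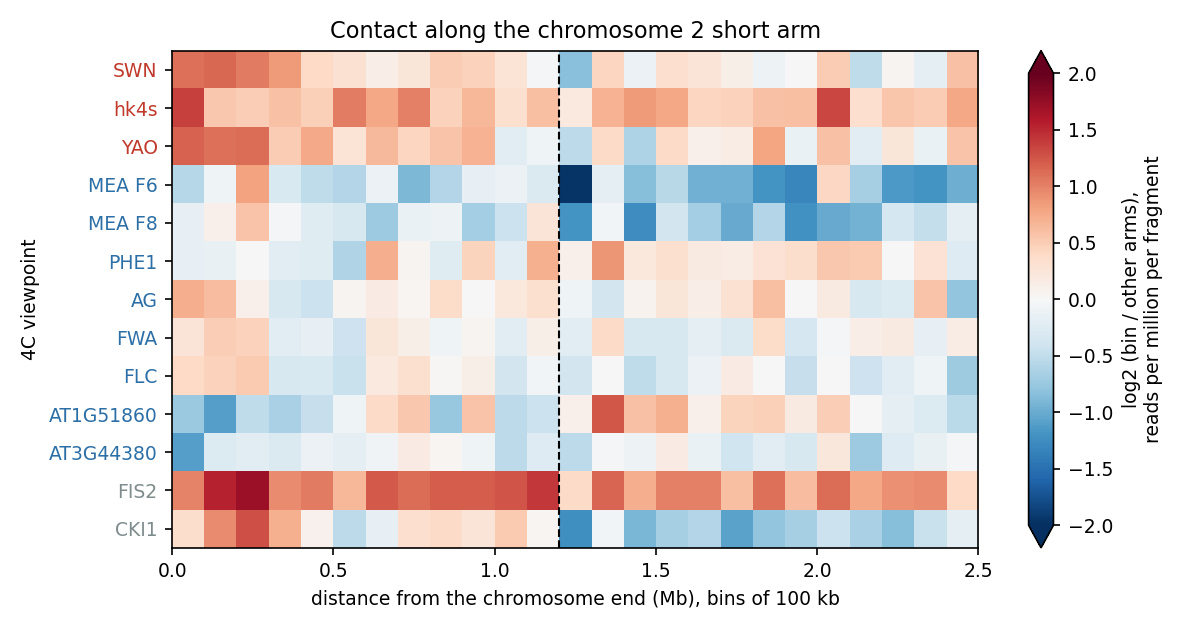
Log2 ratio of mean RPM per fragment in bins of 100 kb over the arms of other chromosomes (colour), for each viewpoint (rows, chromosome 4 short arm viewpoints on top and chromosome 2 viewpoints at the bottom) against the distance from the chromosome end. The dashed line marks 1.2 Mb, the limit between the outer and inner part, and the last bin holds 7 fragments. SWN, YAO, FIS2 and CKI1 each have their reddest bin in the first 0.3 Mb, while hk4s and FIS2 are above 0 in all 25 bins and hk4s reaches 1.37 in the outermost bin and 1.34 at 2.0 to 2.1 Mb.

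SWN, hk4s and YAO had a higher mean than the other 8 viewpoints outside chromosome 2 in each of the 25 bins, as they had over the whole arm. In 6 bins the lowest of the 3 was above the highest of the 8. The largest gap was in the outermost bin, where the log2 ratio over the other arms was 1.102 to 1.37 in the 3 viewpoints and -1.09 to 0.73 in the 8. Only 36.1% of the 36 members of that bin have 2 ends that match the genome once, and it holds 22.1 genomic DNA reads per kb, or 5.64 without the 2 outermost members, against 5.30 in the next bin, where 100% of members have unique ends. In that next bin the ranges were 0.54 to 1.15 and -1.10 to 0.62, which overlap. Over the first 0.3 Mb, a limit chosen after the profiles were seen, the mean ratio was 1.02 ± 0.17 in the 3 viewpoints and 0.05 ± 0.47 in the 8, and over the rest of the arm 0.37 ± 0.24 and -0.11 ± 0.30 (SD).

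The outer 666 members were set against the inner 638 in each library. The outer part held 13.1 and 13.1 RPM from SWN, against 9.99 and 8.40 RPM in the inner part. From CKI1 it held 14.2 and 16.6 RPM, against 7.22 and 7.40 RPM. From AT1G51860 the order was turned, with 5.83 and 3.87 RPM in the outer part and 8.10 and 6.01 RPM in the inner part. The mean log2 ratio of outer over inner was 0.25 ± 0.42 (SD, n = 13), positive for 10 viewpoints, with an exact sign-flip permutation p of 0.0527, which did not pass. It passed without AT1G51860 (0.32, exact permutation p = 0.0107) or without PHE1 (0.30, exact permutation p = 0.0259), the viewpoints below 0 in both replicates. Since these were picked for values against the tested direction, their omission lends the ratio no support. Over the 13 omissions of a single viewpoint the exact permutation p ran from 0.0107 to 0.105.

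This ratio followed the position of the viewpoint on its own arm. Position was expressed as the distance to the centromere over the length of the arm, 0 at the centromere and 1 at the chromosome end. CKI1, at 0.99, had the highest ratio of outer over inner with 0.97 and 1.17. MEA F6 and MEA F8, both at 0.96, followed with means of 0.60 and 0.58. At the other extreme AT1G51860, at 0.27, had -0.47 and -0.63, and AT3G44380, at 0.25, had 0.17 and -0.19. YAO, at 0.31, stood above its neighbours in position with 0.56 and 0.44. Over the 13 viewpoints Spearman's rho was 0.83 (permutation p = 0.00066, adjusted p = 0.00132 over both coefficients) and Pearson's r 0.72 (permutation p = 0.00552). These 13 pool FIS2 and CKI1, which lie on the same chromosome as the short arm, with the viewpoints outside chromosome 2. A correlation over the latter alone is not given. Leaving out AT3G44380 and CKI1, whose positions are most extreme, gave r = 0.64 (permutation p = 0.0336). For the 8 viewpoints of the first batch, at 0.44 to 0.99, r was 0.85 (exact permutation p = 0.00766) and rho 0.95. No correlation was computed over the 5 viewpoints of the later batch, whose mean ratios, ordered from the centromere outward, were -0.01 for AT3G44380, -0.55 for AT1G51860, 0.50 for YAO, 0.09 for hk4s and 0.52 for SWN.

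**Figure D3:**
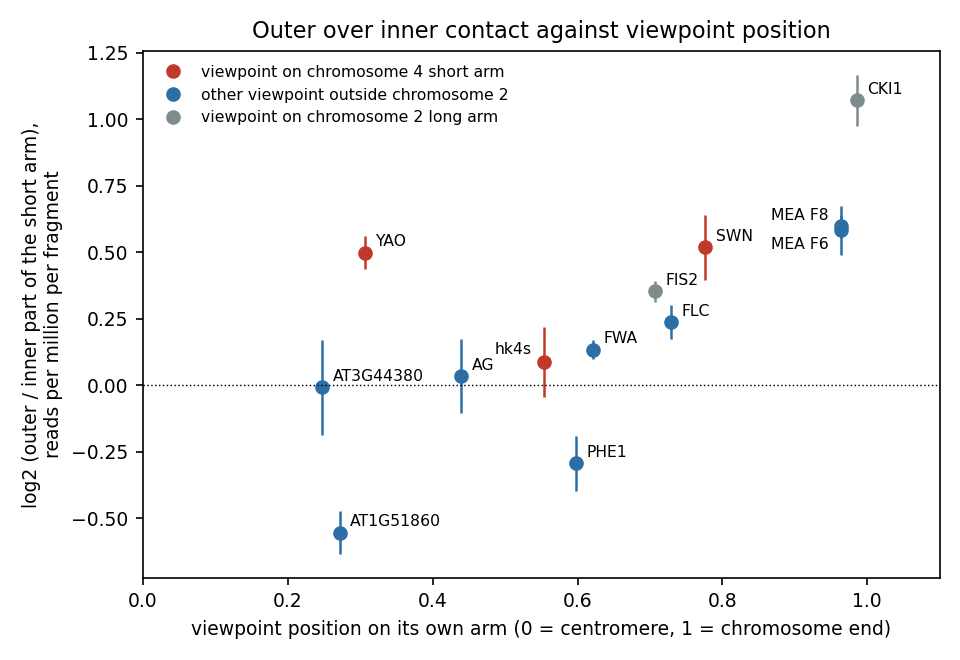
Log2 ratio of mean RPM per fragment in the outer 1.2 Mb over the inner part of the short arm (y axis) against the viewpoint's position on its own arm (x axis, 0 at the centromere and 1 at the chromosome end). Points are means and lines join the 2 replicates of each viewpoint. The ratio runs between -0.55 at AT1G51860 and 1.07 at CKI1, both means of the replicates.

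The members differ in composition from other arm euchromatin and among themselves. Transposable elements are annotated on 51.8% of members, against 24.1% of the 56167 fragments of other arms, and genes on 64.6%, against 83.9%. Members carry more of the marks of silent chromatin, with mean densities of 10.9% against 5.31% of bases for H3K27me1 and 5.97% against 2.61% for H3K9me2. They carry less of the marks of active genes, with 25.97% against 36.4% for H3K36me3 and 22.2% against 31.4% for H3K4me2, and less transcription, 13.0% against 18.6%. Both ends match the genome once for 84.0% of members and 91.7% of the other fragments. The outer part is the richer in genes, with 0.738 against 0.382 per fragment, and in H3K36me3, with 34.5% against 17.1%, and the poorer in transposable elements, with 0.402 against 0.998 per fragment. These are descriptions of the sequence and of published profiles, with no test.

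Within the short arm, contact was compared between members above the median of each feature and the rest. Of 23 chromatin and annotation features that could be split, 16 gave more reads per fragment in the upper part over the 13 viewpoints after Benjamini-Hochberg adjustment, and none gave fewer (exact sign-flip permutation tests over viewpoints). Per kb of fragment 20 features passed, 9 with more and 11 with fewer reads in the upper part. Reads are counted only at the HindIII ends of a fragment, however long it is. Division by length thus lowers the values of longer members by itself, and the per kb calls mix contact with length. The same fragments underlie every viewpoint, so these tests address whether viewpoints share a direction and do not treat fragments as replicates. The largest difference was that of members with an annotated 3′ UTR, 0.59 ± 0.19 (SD, n = 13) on the log2 scale, and the lowest that of members with a transposable element gene, -0.10 ± 0.24, which did not pass (adjusted p = 0.19).

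Members rich in marks of active genes had more contact reads per fragment. Members high in H3K4me2, a mark of active and poised genes, had 14.0 and 12.2 RPM from SWN, against 9.06 and 9.30 RPM in members low in it. From hk4s they had 12.02 and 9.04 RPM, against 10.6 and 7.70 RPM, and from FIS2 22.5 and 22.9 RPM, against 15.7 and 16.2 RPM. All 13 viewpoints had a higher mean in the upper part, with a log2 ratio of 0.37 ± 0.19 (adjusted exact permutation p = 0.00051), between 0.14 for AT3G44380 and 0.71 for CKI1. AT3G44380 replicate B, with -0.03, was the only library below 0. H3K36me3, which covers transcribed gene bodies, gave 0.34 ± 0.22, H3K36me2 0.33 ± 0.20, H3K4me3, at the start of active genes, 0.23 ± 0.18, and H3K18Ac 0.12 ± 0.14. H3K9Ac gave 0.31 ± 0.22 and transcription 0.48 ± 0.24 per fragment. Neither passed per kb (0.003 ± 0.36 and -0.12 ± 0.33). The H3K4me2 difference was also found within the outer part (0.27 ± 0.18, 11 of 13 viewpoints) and within the inner part (0.40 ± 0.18, 13 of 13). Among members whose ends match the genome once it was 0.37 in 13 of 13 viewpoints. Outer members were 67.5% of the upper part for H3K4me2 and 34.7% of the rest. Within the outer part H3K36me3 gave 0.21 ± 0.22 and H3K36me2 0.15 ± 0.21, and H3K4me3 did not pass (0.09 ± 0.21, adjusted exact permutation p = 0.184). H3K18Ac did not pass within the inner part (0.10 ± 0.17, adjusted exact permutation p = 0.0607). The upper part for H3K4me2 had 93.1% members with unique ends, against 74.8%. Its genomic DNA reads were higher by 0.46 on the log2 scale over all members and by 0.11 without the 2 outermost members, both of which fall in the upper part. Without these 2 members the H3K4me2 difference in contact was 0.38.

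Fragment length changed the picture for other features. Members with H3K9me2, a mark of silent transposons, had more reads per fragment (0.17 ± 0.19, 11 of 13 viewpoints, adjusted exact permutation p = 0.0101) but fewer reads per kb (-0.84 ± 0.24, 0 of 13 viewpoints above 0), and they are longer by 1.17 on the log2 scale. H3K27me3, the Polycomb mark, gave 0.21 ± 0.10 per fragment and -0.27 ± 0.29 per kb, and annotated 5′ UTRs gave 0.37 ± 0.22 and -1.03 ± 0.31. H3K27me1, a mark of heterochromatin, did not pass per fragment over the whole arm (0.01 ± 0.17, adjusted exact permutation p = 0.838) and gave -0.60 ± 0.23 per kb. Outer members were 39.4% of its upper part and 62.7% of the rest. Within the inner part it passed per fragment (0.19 ± 0.19, 11 of 13 viewpoints, adjusted exact permutation p = 0.00736), and within the outer part it did not (0.02 ± 0.11). Annotated transposable elements likewise passed within the inner part (0.25 ± 0.29, adjusted exact permutation p = 0.0133) and not within the outer part (0.08 ± 0.29). Of the 16 features, 7 were higher on both scales, namely annotated genes, annotated proteins, H3K4me2, H3K4me3, H3K36me2, H3K36me3 and H3K18Ac. A further 6 turned below 0 per kb with a call, and 3 had no call per kb, namely annotated mRNAs, H3K9Ac and transcription. The control tracks were also higher per kb, total H3 by 0.71 ± 0.27 (13 of 13 viewpoints) and input by 0.21 ± 0.22 (adjusted exact permutation p = 0.00967), though neither passed per fragment (0.02 ± 0.16 and -0.02 ± 0.10). The H3 value was the highest of the 23 per kb. Members in the upper part differed in length by -0.57 for H3, -0.22 for input and -0.23 for H3K18Ac on the log2 scale. Members split by annotated genes differed in length by 0.02 and by H3K36me3 by -0.06 on the log2 scale, and these gave 0.25 ± 0.15 and 0.34 ± 0.22 per fragment against 0.40 ± 0.19 and 0.28 ± 0.20 per kb.

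**Figure D4:**
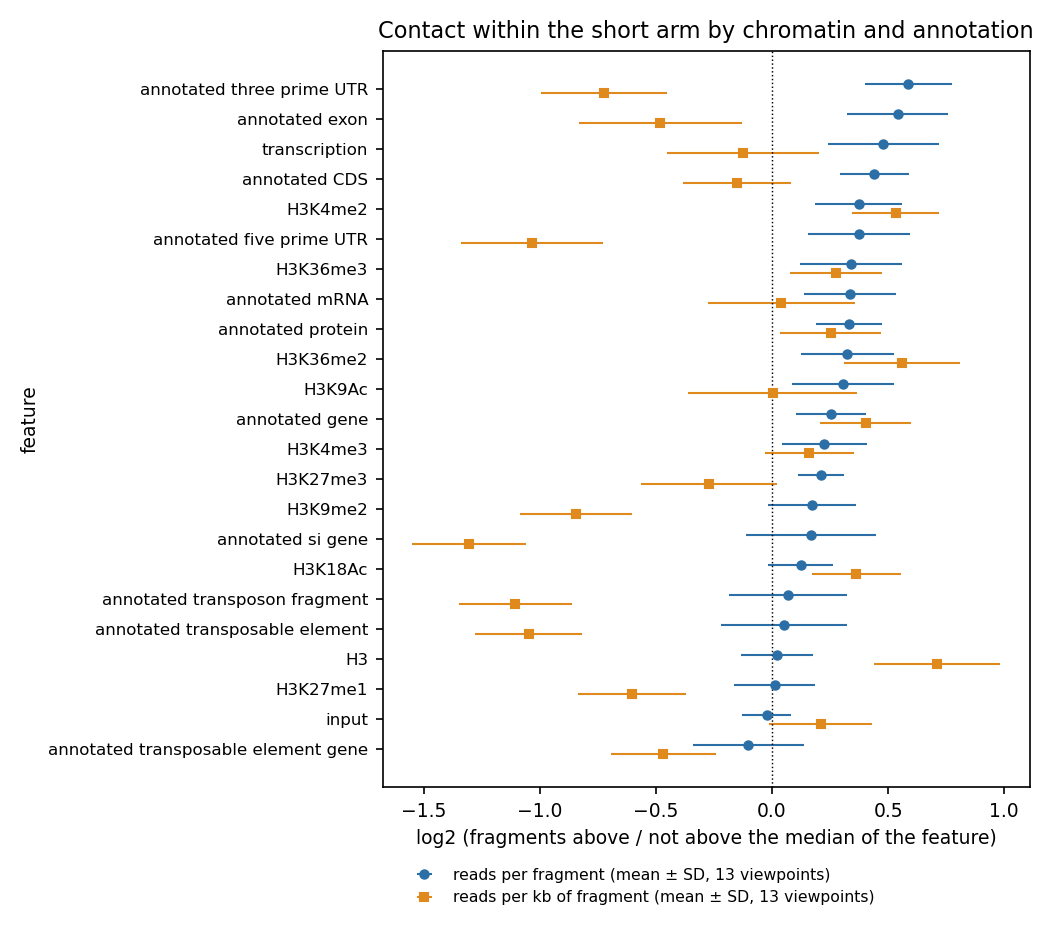
Log2 ratio of contact between members above and not above the median of each feature (y axis), as reads per fragment (circles) and reads per kb of fragment (squares), mean and SD over 13 viewpoints. H3K4me2, H3K36me2, H3K36me3, H3K4me3, H3K18Ac and annotated genes lie above 0 on both scales, while H3K9me2 and UTRs lie above 0 per fragment and below 0 per kb.

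Single members were ranked by the median over viewpoints of their RPM, over 952 members kept for every viewpoint. The median of these values was 5.66 RPM, and 44 members had 0. The highest, at 31.2 RPM, was the fragment at chr2:1583995-1590107 that reaches into IBR5, a phosphatase gene of auxin signalling, whose end is shown above. It ran between 17.1 RPM for MEA F8 and 62.7 RPM for FIS2, with reads in 25 of 26 libraries. It lies in the inner part, 1.58 Mb from the end. The second, with 30.4 RPM, was the fragment at chr2:112921-117248 that overlaps PDE331, a gene whose mutants have a pigment defect. It had 109 and 113 RPM from CKI1 but 3.24 and 3.43 RPM from PHE1, so that the replicates of both viewpoints were close while the viewpoints differed. The others were the fragments at chr2:1006020-1009749 (AT2G03310, AT2G03320 and AT2G03330), at chr2:158400-163021 (AT2G01330) and at chr2:1375810-1378681 (AT2G04100), with 29.5, 28.98 and 28.4 RPM. All 5 have ends that match the genome once and between 7 and 14 genomic DNA reads, near the median of 9 over all fragments.

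The member with the most reads was a different one for nearly every viewpoint, 12 distinct fragments for 13 viewpoints. The fragment at chr2:182723-190069, which touches PIN4, an auxin efflux carrier gene, and HB17, a homeobox gene, led for FIS2 with 126 and 151 RPM and for FWA with 55.7 and 88.5 RPM, while both CKI1 libraries had 0. From CKI1 the PDE331 fragment led, and from SWN the fragment at AT2G01130, 0.09 Mb from the end, with 76.1 and 66.1 RPM. From YAO it was the fragment at chr2:148274-149500, which overlaps RPI2, a ribose-5-phosphate isomerase gene, with 75.9 and 74.3 RPM. In these the replicates lay close together. They lay farther apart for the leading fragments of the other viewpoints. Replicates A and B had 206 and 22.2 RPM from MEA F6, 113 and 24.5 RPM from hk4s and 33.7 and 106 RPM from AT1G51860. The values were 69.8 and 24.1 RPM from AT3G44380, 68.1 and 26.7 RPM from AG and 113 and 52.5 RPM from FLC. For MEA F8 the leading fragment, at MGT3, a magnesium transporter gene, had 397 and 17.1 RPM in its replicates, and for PHE1 the leading fragment, at STI, a trichome branching gene, had 28.5 and 193 RPM, so that single fragments of those viewpoints rest on 1 library.

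Of 25 genes listed for this arm, 24 lie on members, and ELF8 begins at 2.43 Mb, outside the limit. The 24 had medians over viewpoints of 4.02 to 27.1 RPM, each a mean over the 1 to 6 kept fragments of the gene, so that these values are not set against the median of single members. Of the 24, 4 lie on the outermost member and share its values. Among hormone genes, RGA1, a DELLA repressor of gibberellin responses, had 20.3 RPM, PIN4 16.7 RPM, WOL, a cytokinin receptor, 7.60 RPM, BRL2, a receptor kinase related to the brassinosteroid receptor, 15.03 RPM, and OPR3, an enzyme of jasmonate synthesis, 11.5 RPM. For RGA1 the highest value was 67.5 RPM from CKI1 and the lowest 0.77 RPM from AT1G51860. Among transcription factor genes ZAP1, a WRKY gene, had 27.1 RPM with 80.9 RPM from FIS2, WRKY3 7.75 RPM, SEP4, a floral MADS-box gene, 7.10 RPM, AGL30 10.6 RPM, PFS2, a WOX homeobox gene, 8.07 RPM and SGR5, a zinc finger gene of shoot gravitropism, 7.31 RPM. Genes of metabolism, transport and photosynthesis spanned the same range, with 16.3 RPM for the aconitase ACO3, 11.6 RPM for GRP-3, 7.82 RPM for the sodium antiporter SOS1, 7.46 RPM for FT1, a xyloglucan fucosyltransferase, 7.22 RPM for the chloroplast chaperone CR88, 11.3 RPM for LHCB2.2 and 4.82 RPM for LHCB2.1. For the 2 light-harvesting genes, picked after their values were seen, the groups of viewpoints overlapped at both genes. LHCB2.2 had 31.5 and 8.82 RPM from SWN, 8.01 and 14.7 RPM from hk4s and 41.8 and 50.8 RPM from YAO, and the other 8 viewpoints outside chromosome 2 had means of 0 to 22.7 RPM. LHCB2.1 had means of 1.93 to 3.72 RPM from SWN, hk4s and YAO and of 0 to 23.99 RPM from the other 8.

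The ribosomal RNA genes of the reference stand on the outermost member, which carries AT2G01010 (18S) and AT2G01020 (5.8S). It had 859 genomic DNA reads, against a median of 9 over all fragments, and its 4C level was 4.02 RPM in the median over viewpoints. SWN gave 7.87 and 17.6 RPM, hk4s 2.37 and 1.19 RPM and YAO 7.74 and 1.24 RPM, a mean of 6.34 RPM. The other 8 viewpoints outside chromosome 2 had means of 0 to 31.6 RPM, which overlap these. Their mean of 8.09 RPM was 4.72 RPM without MEA F8, the highest of them, and their median was 3.56 RPM, against a median of 4.49 RPM for SWN, hk4s and YAO, so that no order of the groups is given. FIS2 gave 9.81 and 49.2 RPM and both AT1G51860 libraries 0. The second member, with 923 genomic DNA reads, had a median of 4.37 RPM. These 2 fragments were the only members with over 10 times the median of genomic DNA reads or with 0. Without such fragments the difference of SWN, hk4s and YAO from the other 8 viewpoints over the whole arm was 0.54, as with them. At the inner limit, the last member, at chr2:2407705-2407721, had no second site and was not kept, and the next fragment, just outside at chr2:2407716-2411681, had a median of 5.32 RPM.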

How the data were processed

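The authors assigned 4C reads to viewpoints by their primer, mapped them with Bowtie 0.12.7 to TAIR10, allowing no mismatch, and deposited expected counts per HindIII fragment end, in which reads with several matches are shared out by weight, without normalization. The authors also deposited expected counts of published genomic DNA reads, realigned by them, signal values (the percentage of a fragment's bases covered in published profiles of histone marks, transcription and input) and scores (numbers of annotated features per fragment). These scores are not always whole and so appear weighted where a feature spans fragments, by a rule not given in the sources used here, and they are not plain counts of genes.

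Here, HindIII-end counts were scaled to 1000000 kept reads per library and averaged over fragments. Sites of the second enzyme (NlaIII for 7 viewpoints, DpnII for 6) were located in RefSeq TAIR10.1, because the deposited distances are those of NlaIII in every file. The NlaIII assignment follows the study's methods, from which its table of viewpoints differs. Ratios were log2 ratios within a library, averaged over replicates. They were tested over viewpoints by exact two-sided sign flips or permutations, and correlations by 100000 permutations (all of them for 8 viewpoints), with Benjamini-Hochberg adjustment. According to the study, libraries with the same replicate letter shared a sequencing lane within a batch. The correlation of their deviations over bins had a mean of 0.01 over 28 pairs in the first batch (-0.39 to 0.49). In the later batch it was 0.03 over 10 pairs (-0.33 to 0.47). A mean near 0 does not show that the letters share nothing, and a shared effect at single fragments was not tested. Fragments named were the outermost members, those at the limit, the 5 with the highest median and the leading one of each viewpoint. The genes are those annotated there and a list of known genes of the arm. Members, lists and tests were chosen with earlier results of these data known. Alternatives changed the ends counted, filters, scale, comparison region, replicates, batches and viewpoints. Procedures were tested on simulated reads. Python 3.11.15, numpy 2.4.6, pandas 2.3.3, scipy 1.17.1 and matplotlib 3.10.9 were used. Reads without molecular identifiers do not count independent molecules.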

Additional observations from a re-analysis of the deposited data

Results flagged for a closer look

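Viewpoints on the short arm of chromosome 4 and the other viewpoints outside chromosome 2 differed in their contact with the short arm of chromosome 2, by 0.54 on the log2 scale (exact permutation test, p = 0.0121). All 6 libraries of SWN, hk4s and YAO were above 0. The following viewpoints had both replicates below 0 where others had both above, a contrast that was not tested for single viewpoints. For the short arm over other arms these were MEA F6 with a mean of -0.48, MEA F8 with -0.36, AT3G44380 with -0.19 and FLC with -0.052. For the outer over the inner part these were AT1G51860 with -0.55 and PHE1 with -0.29.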

How the results depend on the processing

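Over 11 viewpoints, the ratio of the short arm over other arms had no common direction, and it turned below 0 in the first batch alone (-0.087), against fragments at the same distance to the chromosome end (-0.18) and against the long arm of chromosome 2 (-0.10). Against fragments at the same distance to the centromere it passed, at 0.46 (exact permutation p = 0.00586). The higher contact from the short arm of chromosome 4 lost its call against chromosome ends (0.45, exact permutation p = 0.224), against the long arm of chromosome 2 (0.68, exact permutation p = 0.0788) and in the later batch alone (0.51, exact permutation p = 0.1, the smallest possible there). Under the other 23 alternatives it kept direction and call, and leaving out 1 viewpoint gave 0.44 to 0.61. The comparison regions and the later batch alone were chosen after seeing the data.

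The outer over inner ratio passed with the ends of both enzymes summed (0.35, exact permutation p = 0.00537) and without the filter on second sites (0.29, exact permutation p = 0.0205), and leaving out 1 viewpoint gave 0.18 to 0.32. Its relation to viewpoint position kept direction and call under all 24 alternatives, with rho between 0.62 and 0.95. The ratios over the end of the chromosome 4 short arm and over other ends kept their direction and did not pass under any of 16 and 21 alternatives.

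With the replicate letter as a block, ratios averaged over replicates stay the same by construction, since every viewpoint has both letters (0.54 for the viewpoints of the chromosome 4 short arm). This alternative is thus no check on them, also where it is counted above. For the relation to viewpoint position, rho over 26 libraries was 0.73 in place of 0.83. The count of 16 features, all higher, was 16 to 18 under the alternatives other than reads per kb. Per kb, 20 passed, 9 higher and 11 lower, and the ratio reversed for annotated coding sequence (-0.15), exons (-0.48), 5′ UTRs (-1.03), 3′ UTRs (-0.72), H3K27me3 (-0.27), H3K9me2 (-0.84) and transcription (-0.12). The splits of these features have longer members in the upper part, by 0.60 to 1.27 on the log2 scale. Since reads are counted at fragment ends, division by length lowers their values by itself. H3K18Ac lost its call with log2(reads + 1), with unique ends or without replicate B, and H3K9me2 without replicate A (0.08). Single fragments are limited by depth: in the shallowest library 27.96% of members had reads.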
